A study of Mus musculus with 8 samples.

Results

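Amino acid transporters carry amino acids across the plasma membrane. The 10 transporter genes described here were Slc7a1, Slc7a5, Slc7a6, Slc7a8, Slc7a11, Slc3a2, Slc1a4, Slc1a5, Slc38a1 and Slc38a2. They were chosen by name, as 10 of the 54146 genes in the quantification, and their transcripts were summed per gene. Poly-adenylated RNA was sequenced from EL4 cells, a mouse T lymphoma line that carries its own Gata3, stimulated for 4 h with ionomycin (1 μM) and the phorbol ester PMA (50 ng/ml). The stimulation was the same in all 4 lines, each of which was a single retrovirally transduced line harvested on different days for its 2 libraries. GFP + Plum cells carried 2 fluorescent proteins only and served as the control. T-bet + Plum cells expressed FLAG-tagged T-bet, the transcription factor that directs the T helper 1 programme. GFP + GATA3 cells expressed HA-tagged GATA3, which directs the T helper 2 programme, on top of the endogenous gene. T-bet + GATA3 cells expressed both tagged proteins. The p-values below therefore measure the spread between harvests of one line, and no unstimulated or non-transduced cells were analysed here.

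T cells that are activated grow and divide, and they take up large amounts of amino acids to make protein. Several kinds of carrier are involved. The Slc7 light chains Slc7a5 (LAT1), Slc7a8 (LAT2), Slc7a6 (y+LAT2) and Slc7a11 (xCT) reach the cell surface bound to a shared heavy chain, Slc3a2 (CD98). Slc7a1 (CAT1) takes up arginine and lysine without that partner, Slc1a4 and Slc1a5 (ASCT1 and ASCT2) exchange small neutral amino acids and glutamine with sodium, and Slc38a1 and Slc38a2 (SNAT1 and SNAT2) accumulate glutamine, alanine and related amino acids. Several of these genes are known to respond to ATF4, a transcription factor made when amino acids run short, through a short DNA element, and MYC is known to raise the uptake of large neutral amino acids and glutamine in T cells.

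Slc7a11 was the member that varied most over the lines, so the sequence just before its start is shown first. It was not among the members that passed the main edgeR tests below. Of the 10 genes, 7 had a RefSeq promoter (GRCm38.p6), and Slc7a5, Slc38a1 and Slc1a5 did not. The sequence below runs from base -250 to base -2 before the RefSeq start (base 0) on the minus strand, at chr3:50443615-50443863. Capitals mark matches to the ATF4 response element TGATGNAA on either strand.

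Slc7a11: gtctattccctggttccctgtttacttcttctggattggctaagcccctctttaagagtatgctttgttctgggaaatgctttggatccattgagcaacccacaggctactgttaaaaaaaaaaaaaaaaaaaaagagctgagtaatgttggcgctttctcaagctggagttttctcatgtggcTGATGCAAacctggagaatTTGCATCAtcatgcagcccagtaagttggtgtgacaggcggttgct

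The element occurred at -66 to -59 on the sense strand and again at -47 to -40 on the opposite strand. Slc1a4 held the element once, from -4 to 3 on the opposite strand, and 3.97% of all 32851 RefSeq promoters of this length held it at least once. The letters of a T-box element (AGGTGTGA, 1.28% of promoters), a GATA element (AGATAA, 11.2%) and an E-box (CACGTG, 7.15%) were not in these windows of the 7 members, with both strands searched. A match of letters is not a measured binding site.

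The libraries held 8038565 to 16003519 estimated counts, so that the 3 counts taken as the limit of detection corresponded to 0.187 to 0.373 CPM (counts scaled to the total of the library). Replicate 1 was shallower than replicate 2 in all 4 lines. All 10 transporters passed the filter on low counts that left 14791 genes for testing. Tbx21, the gene of T-bet, lay at 128.7 to 160.1 normalised CPM in the 4 libraries with T-bet and at 1.78 to 3.59 CPM in the other 4. Gata3 lay at 165 to 326 CPM in the libraries with added GATA3 and at 25.8 to 53.3 CPM in the rest, so both genes followed the labels. All 7 T cell markers were detected, with a summed level of 940 to 1286 TPM (transcript abundance scaled to transcript length and to the same total in every library). Markers of B, myeloid, NK and epithelial cells summed to at most 0.819 TPM in any library, and fibroblast markers to 0.577 to 7.06 TPM, nearly all of it Pdgfra. In RNA from many cells, a lower level can come from fewer cells that express a gene or from less RNA in each, and these cannot be told apart.

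Levels of different genes were compared in TPM, since it accounts for length. Slc3a2 had the highest median over the 8 libraries (343 TPM, range 258 to 485), followed by Slc1a5 (273 TPM, range 198 to 361). Slc7a5 had a median of 194 TPM (153 to 237) and Slc38a2 one of 180 TPM (137 to 226). Slc38a1 (122 TPM, 105 to 159) and Slc7a1 (65.3 TPM, 48.7 to 76.1) came next, then Slc7a6 (26.6 TPM, 19.4 to 30.7) and Slc1a4 (13.3 TPM, 6.84 to 20.3). Slc7a11 (3.36 TPM, 1.44 to 15.3) and Slc7a8 (2.37 TPM, 0.896 to 7.37) were the lowest. By median TPM the 5 most abundant members all lay above at least 93.2% of the genes tested.

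Neighbours in this order were not equally separate. Slc3a2 exceeded Slc1a5 in 7 of 8 libraries, and Slc7a5 exceeded Slc38a2 in only 4 of 8. The ranges of Slc38a1 and Slc7a1 did not overlap, nor did those of Slc7a1 and Slc7a6, whereas those of Slc7a11 and Slc7a8 did, with Slc7a11 the higher in 6 of 8 libraries. The members also differed in how much they varied between libraries. The highest library was 1.51 to 1.88 times the lowest for the 7 most abundant members, 2.98 times for Slc1a4, 8.23 times for Slc7a8 and 10.7 times for Slc7a11.

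**Figure D1:**
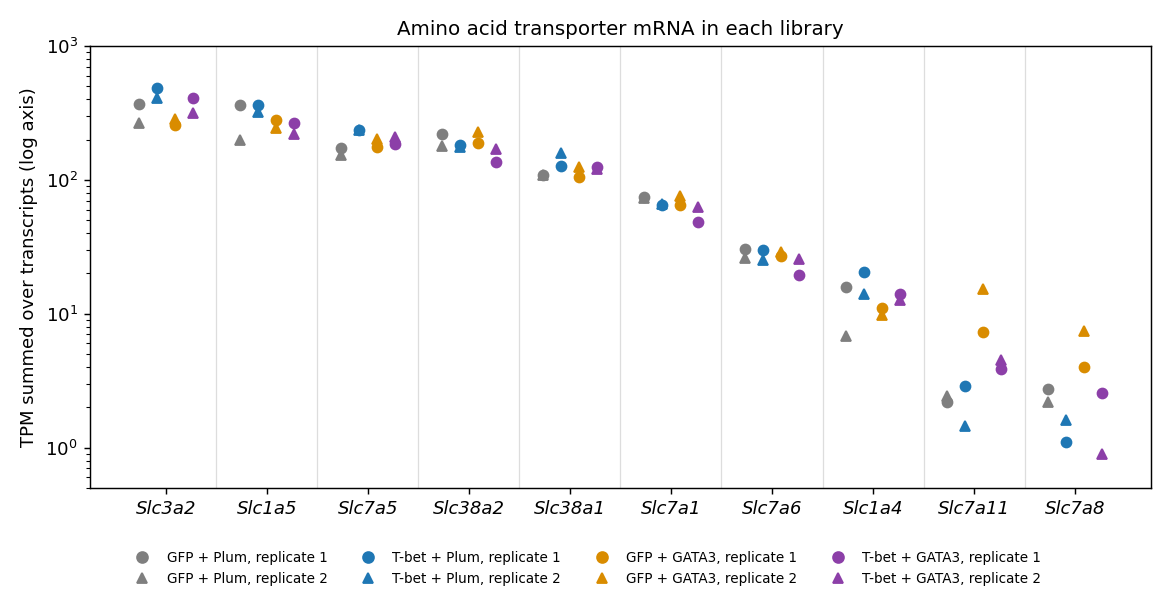
TPM of each transporter gene (log axis) in the 8 libraries, with colour for the line and shape for the replicate, genes ordered by median. The abundant members stayed within a narrow band, while Slc7a11 and Slc7a8 spread widely and were highest in the GFP + GATA3 line.

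The rank of Slc1a5 depended on which transcripts were counted. A retained-intron transcript of Slc1a5 held 53.7 to 67.8% of its TPM, and the protein-coding transcript held only 10.8 to 27.4%. On protein-coding transcripts alone Slc1a5 had a median of 35.9 TPM and moved from rank 2 to rank 6. The coding share was at least 78.8% in every library for all other members except Slc7a6 (52.7 to 75.2%) and Slc7a11 (70.4 to 88.8%). The 2 coding transcripts of Slc1a4, which are 3926 and 3872 bases long, were split very unevenly between libraries, with 13.4 to 86.3% of its TPM in the shorter one, so only their sum is used.

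The first comparison was of cells with and without T-bet. Averaged over cells without and with added GATA3, 3 of the 10 members rose with T-bet and none fell at a false discovery rate (FDR) of at most 0.05 in edgeR's quasi-likelihood test. Among all genes tested, 8.55% rose and 6.61% fell by the same rule, and 15.2% changed in either direction. The 3 that rose were Slc7a5, its heavy chain Slc3a2, and Slc38a1, all by less than 1.5-fold. By unadjusted p under 0.05 the count was 6 of 10, against 29.2% of all genes, and DESeq2 called 6 members, 4 higher and 2 lower, against 15.7% of all genes, 8.24% higher and 7.46% lower. The median log2 fold change of the members was 0.04, beside 0.02 for all genes, with 5 members higher and 5 lower.

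Slc7a5 encodes the light chain of the main carrier of leucine and other large neutral amino acids and lies at chromosome 8, 121881150 to 121907694, on the minus strand (GRCm38, as are all positions here). The 2 GFP + Plum libraries had 479 and 495 normalised CPM, and the 2 of T-bet + Plum had 733 and 738 CPM. It stood at 511 and 585 CPM in GFP + GATA3 and at 644 and 651 CPM in T-bet + GATA3. All 4 libraries with T-bet lay above all 4 without it in CPM, although in TPM the ranges overlapped, since T-bet + GATA3 replicate 1 (186 TPM) lay below GFP + GATA3 replicate 2 (201 TPM). The average log2 fold change was 0.42 ± 0.08 (SE), or 1.34-fold, with an FDR of 0.0115 in edgeR. Leaving out T-bet + Plum replicate 2 or GFP + GATA3 replicate 1 brought the FDR to 0.0528 and 0.0659.

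Slc3a2 (chromosome 19, 8706882 to 8723369, minus strand) is the heavy chain that brings Slc7a5 and the other light chains to the surface. Its level was 460 and 368 CPM in GFP + Plum libraries, 659 and 552 CPM with T-bet alone (T-bet + Plum), 324 and 352 CPM in GFP + GATA3, and 611 and 404 CPM in T-bet + GATA3. Within each GATA3 state both T-bet libraries exceeded both libraries without T-bet, but T-bet + GATA3 replicate 2 lay below GFP + Plum replicate 1. The average log2 fold change was 0.57 ± 0.15 (SE), or 1.48-fold, with an FDR of 0.0378. The FDR rose above 0.05 when any 1 of 6 of the 8 libraries was left out (all but GFP + Plum replicate 1 and T-bet + GATA3 replicate 2), reaching 0.128, and was 0.0546 when libraries were scaled by total count only.

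Slc38a1 (chromosome 15, 96571418 to 96642913, minus strand) takes up glutamine and other neutral amino acids with sodium. It measured 401 and 449 CPM in GFP + Plum libraries, 525 and 671 CPM with T-bet alone (T-bet + Plum), 410 and 459 CPM in GFP + GATA3, and 596 and 514 CPM in T-bet + GATA3. As with Slc7a5, every library with T-bet lay above every library without it in CPM but not in TPM, where T-bet + GATA3 replicate 2 (121 TPM) was below GFP + GATA3 replicate 2 (124 TPM). Such a separation by T-bet was found for these 2 of 10 members and for 22.7% of all genes tested. The average log2 fold change of Slc38a1 was 0.42 ± 0.11 (SE), or 1.34-fold, with an FDR of 0.0373. This call was lost when any 1 of 6 of the 8 libraries was left out (all but GFP + Plum replicate 2 and T-bet + Plum replicate 1), with an FDR of up to 0.145, and at 0.0670 when differences in transcript length were modelled.

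**Figure D2:**
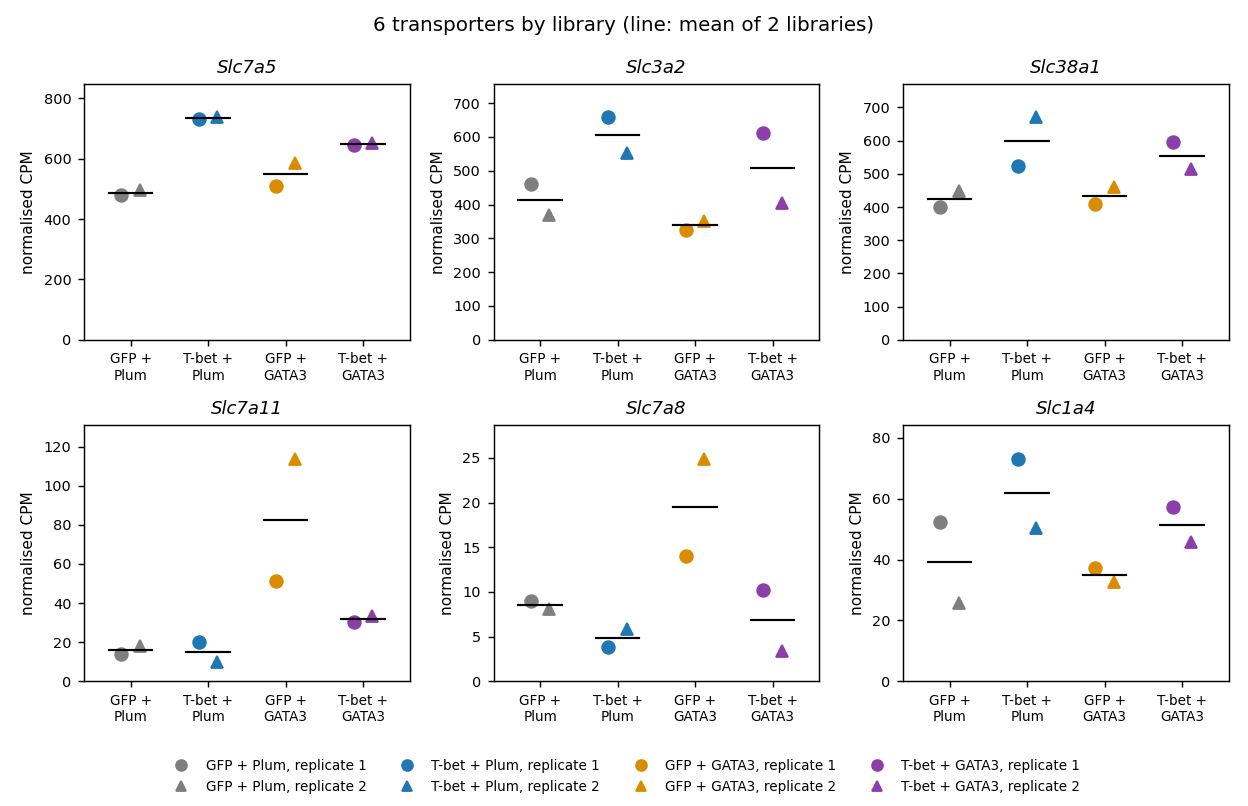
Normalised CPM of 6 transporters in each library, by line, with a line at the mean of the 2 libraries and each axis starting at 0. Slc7a5 and Slc38a1 were higher in all 4 libraries with T-bet, and Slc7a11 in all 4 with added GATA3.

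Slc7a8 and Slc7a11, both scarce light chains, were lower with T-bet by their fitted average effects, without passing the edgeR test. Slc7a8 (chromosome 14, 54722209 to 54781946, minus strand), which exchanges a wide range of neutral amino acids, stood at 8.97 and 8.12 CPM in the control line and at 3.86 and 5.88 CPM in T-bet + Plum. It stood at 14.1 and 24.9 CPM in GFP + GATA3 and at 10.3 and 3.39 CPM in T-bet + GATA3. Both T-bet libraries lay below both libraries without it in each GATA3 state, but T-bet + GATA3 replicate 1 exceeded both GFP + Plum libraries. The average log2 fold change was -1.17 with a 95% interval of -1.98 to -0.37 and an FDR of 0.0596. This value lay close to the threshold. DESeq2 gave an FDR of 0.00561, scaling by total count only gave 0.0418, and fitting protein-coding genes only gave 0.0476. Other alternatives gave up to 0.0748. With each library left out in turn, the log2 fold change ranged from -1.675 to -0.89.

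For Slc7a11 the average effect of T-bet was -0.75 (95% interval -1.42 to -0.08), with an FDR of 0.131 in edgeR and 0.0299 in DESeq2. With each library left out in turn this effect ranged from -1.03 to -0.40. It came mostly from cells with added GATA3 (-1.38), since the value without added GATA3 was -0.12 (-1.09 to 0.86). Slc1a4 (chromosome 11, 20302180 to 20332713, minus strand), which carries alanine, serine and cysteine, had an average log2 fold change of 0.61 (0.08 to 1.13) and an FDR of 0.121. Its GFP + Plum libraries differed from each other by as much, at 52.5 and 25.6 CPM, against 73.2 and 50.4 CPM in T-bet + Plum, 37.2 and 32.6 CPM in GFP + GATA3 and 57.2 and 45.6 CPM in T-bet + GATA3. With each library left out in turn, the log2 fold change of Slc1a4 ranged from 0.39 to 0.91. It was highest without GFP + Plum replicate 1, the higher of that pair. Slc1a4 passed in DESeq2 (0.59, FDR 0.0425) and in edgeR with a replicate block (0.62, FDR 0.0173). In other alternatives its FDR was up to 0.178.

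The remaining 4 transporters had small fitted values. Slc7a1 (chromosome 5, 148327410 to 148399904, minus strand), the arginine and lysine carrier, lay at 282 to 332 CPM with T-bet and 304 to 350.2 CPM without. Slc7a6 (chromosome 8, 106168857 to 106198706, plus strand) lay at 63.9 to 79.3 CPM with T-bet and 73.8 to 80.0 CPM without, and Slc38a2 at 694 to 811 CPM with and 787 to 933 CPM without. Slc1a5 (chromosome 7, 16781340 to 16798274, plus strand), a glutamine carrier, lay at 457 to 759 CPM with T-bet and 449 to 703 CPM without, so that the groups overlapped for all 4. The average effect of T-bet was -0.10 (95% interval -0.30 to 0.09) for Slc7a1 and -0.11 (-0.30 to 0.08) for Slc7a6. It was -0.17 (-0.38 to 0.04) for Slc38a2, which lies on the same chromosome and strand as Slc38a1 (96687392 to 96699730). Slc1a5 had a wider interval, at 0.19 (-0.17 to 0.54), and its 2 control libraries stood apart at 703 and 449 CPM. The FDR of these 4 lay between 0.265 and 0.474. A difference that does not pass is not shown to be 0, but these intervals of the average effect did not reach a 1.5-fold change for any of the 4. In T-bet + Plum against GFP + Plum the interval of Slc1a5 went past it, at 0.33 (-0.17 to 0.83). All these values are sums over coding and other transcripts.

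**Figure D3:**
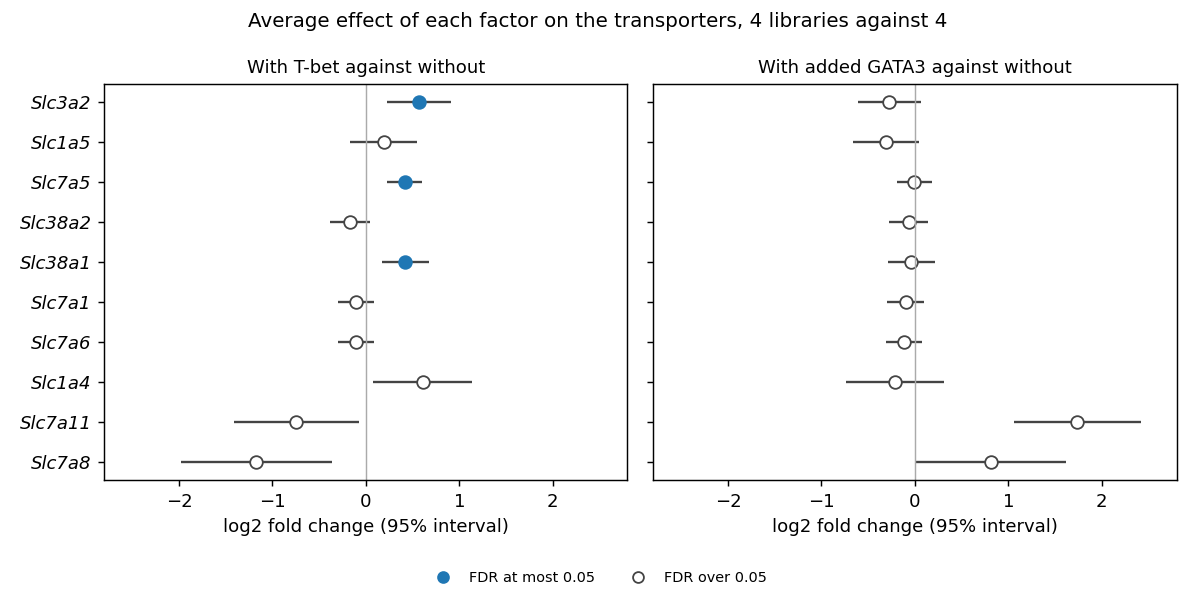
Average log2 fold change of each transporter with T-bet (left) and with added GATA3 (right), 4 libraries against 4, with 95% intervals; filled points passed an FDR of 0.05. Slc3a2, Slc7a5 and Slc38a1 passed for T-bet, and none passed for GATA3, where Slc7a11 had the highest value (1.74).

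Taken within a single GATA3 state, fewer members passed. In T-bet + Plum against GFP + Plum only Slc7a5 was called, with a log2 fold change of 0.60 ± 0.12 (SE), or 1.51-fold, and an FDR of 0.0223, where 6.2% of all genes passed. The call was lost when any of the 4 libraries of these 2 lines was left out, at log2 fold changes of 0.57 to 0.62. With each library left out in turn, that of Slc1a4 ranged from 0.23 to 1.26, the highest without GFP + Plum replicate 1. The FDR of Slc7a5 was 0.0739 when only the 4 libraries of the 2 lines were fitted. Slc3a2 (0.55, FDR 0.199) and Slc38a1 (0.49, FDR 0.122) had unadjusted p-values of 0.0308 and 0.0133 in the edgeR test without passing the adjusted one. With Slc7a5, 3 members had an unadjusted p under 0.05, against 19.4% of all genes. DESeq2 called 1 member, Slc7a5, and 8.08% of all genes.

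In T-bet + GATA3 against GFP + GATA3 none of the 10 passed in edgeR, while 5.77% of all genes did. At an unadjusted p under 0.05 there were 3 members, Slc7a11, Slc7a8 and Slc3a2, against 19.6% of all genes. DESeq2 called Slc7a11 and Slc7a8, both lower, and 7.83% of all genes. Slc7a11 had a log2 fold change of -1.38 (95% interval -2.30 to -0.45, FDR 0.0969) and Slc7a8 one of -1.56 (-2.68 to -0.43, FDR 0.119). Slc3a2 was at 0.59 (0.10 to 1.07, FDR 0.168), close to its value without GATA3, and Slc7a5 at 0.24 (-0.02 to 0.51, FDR 0.303). With each library left out in turn, the log2 fold change ranged from -1.84 to -0.69 for Slc7a11 and from -2.55 to -0.97 for Slc7a8.

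Whether the effect of T-bet differed between the GATA3 states was tested as an interaction. No member and none of all genes passed in edgeR (0.0% of 14791), no member had an unadjusted p under 0.05 (2.58% of all genes did), and DESeq2 called no member (0.112% of all genes). The lowest unadjusted p-values in the edgeR fit were 0.0603 for Slc7a5 (-0.35, 95% interval -0.73 to 0.02) and 0.0618 for Slc7a11 (-1.26, -2.60 to 0.08). A weaker effect of T-bet on Slc7a5 in the presence of GATA3 was therefore not shown, and neither was its absence. Gata3 mRNA was at 204 and 165 CPM in T-bet + GATA3 and at 283 and 326 CPM in GFP + GATA3. This difference did not pass in edgeR (log2 fold change -0.73, FDR 0.0789), and what part it had was not tested.

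Added GATA3 was then compared with none. In GFP + GATA3 against GFP + Plum none of the 10 transporters passed in edgeR, and only 0.0203% of all genes did, or 3 genes. At an unadjusted p under 0.05 there were 2 members, Slc7a11 and Slc7a8 (3.7% of all genes), and DESeq2 called Slc7a11 (0.379% of all genes). In T-bet + GATA3 against T-bet + Plum none passed either (0.0338% of all genes). There 1 member had an unadjusted p under 0.05, again Slc7a11 (3.78% of all genes), and DESeq2 called none (0.291%). Averaged over both T-bet states, 0 of 10 passed (0.0608% of all genes), 2 had an unadjusted p under 0.05 (4.96%) and DESeq2 called 1 (0.561%).

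Slc7a11 is the light chain of the antiporter that imports cystine in exchange for glutamate and so feeds the synthesis of glutathione. The gene lies at chromosome 3, 49892526 to 50443614, on the minus strand, and its promoter is the one printed above. It stood at 14.0 and 18.1 CPM in GFP + Plum libraries, 20.3 and 9.98 CPM with T-bet alone (T-bet + Plum), 51.5 and 113.9 CPM in GFP + GATA3, and 30.5 and 33.3 CPM in T-bet + GATA3. The 4 libraries with added GATA3 were all higher than the 4 without, in TPM as well as in CPM, and it was the only member with this pattern, which 1.62% of all genes tested shared in either direction. The 2 GFP + GATA3 libraries also differed from each other more than those of any other line.

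The log2 fold change of Slc7a11 with GATA3 was 2.37 ± 0.42 (SE), or 5.16-fold, in cells without T-bet, with an unadjusted p of 0.00045 and an FDR of 0.256 in edgeR. In cells with T-bet it was 1.11 ± 0.42 (SE), or 2.15-fold, with an FDR of 1.0. The average over both was 1.74 (95% interval 1.06 to 2.42), or 3.34-fold, with an unadjusted p of 0.000355 and an FDR of 0.140. With each library left out in turn this FDR ranged from 0.0516 to 0.395 and the log2 fold change from 1.39 to 2.02. DESeq2 gave 1.73 with an FDR of 4.96e-08, so the call on Slc7a11 depended on the test used.

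Slc7a8 was also at its highest in GFP + GATA3, with a log2 fold change of 1.195 (95% interval 0.11 to 2.28) against GFP + Plum, an unadjusted p of 0.0352 and an FDR of 1.0 in edgeR. Among the other 8 members the average effect of GATA3 lay between -0.31 (Slc1a5) and -0.01 (Slc7a5), and each interval included 0. The median over the 10 was -0.08, beside 0.00 for all genes, with 8 members lower and 2 higher.

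T-bet + GATA3 was last set against GFP + Plum, a comparison that shares its libraries with those above. None of the 10 passed in edgeR (4.87% of all genes did), 3 had an unadjusted p under 0.05 (17.8% of all genes) and DESeq2 called none (6.85%). The 3 were Slc7a5 (0.41, FDR 0.0945), Slc38a1 (0.39, FDR 0.249) and Slc7a11 (0.99, FDR 0.259).

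Because the light chains share 1 heavy chain, their summed TPM was set against that of Slc3a2 within each library. The ratio was 0.562 and 0.696 in GFP + Plum, 0.559 and 0.649 in T-bet + Plum, 0.830 and 0.892 in GFP + GATA3, and 0.515 and 0.765 in T-bet + GATA3. Both GFP + GATA3 libraries lay above the other 6, a difference that was not tested. In TPM, which accounts for length, Slc3a2 was the larger side in every library. In estimated counts, which are not scaled to length, the light chains exceeded Slc3a2 in every library. These count ratios were 1.23 to 1.88 in the other 6 and 2.01 and 2.28 in GFP + GATA3. In these 2 libraries Slc3a2 was at 258 and 283 TPM, and only GFP + Plum replicate 2 was as low, at 264 TPM. Slc7a5 made up 79.6 to 89.4% of the light-chain TPM in every library and Slc7a6, which exchanges arginine for neutral amino acids, 9.18 to 14.7%. Slc7a11 made up 3.40 and 6.07% in GFP + GATA3 and at most 1.88% elsewhere, and Slc7a8 at most 2.92%.

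**Figure D4:**
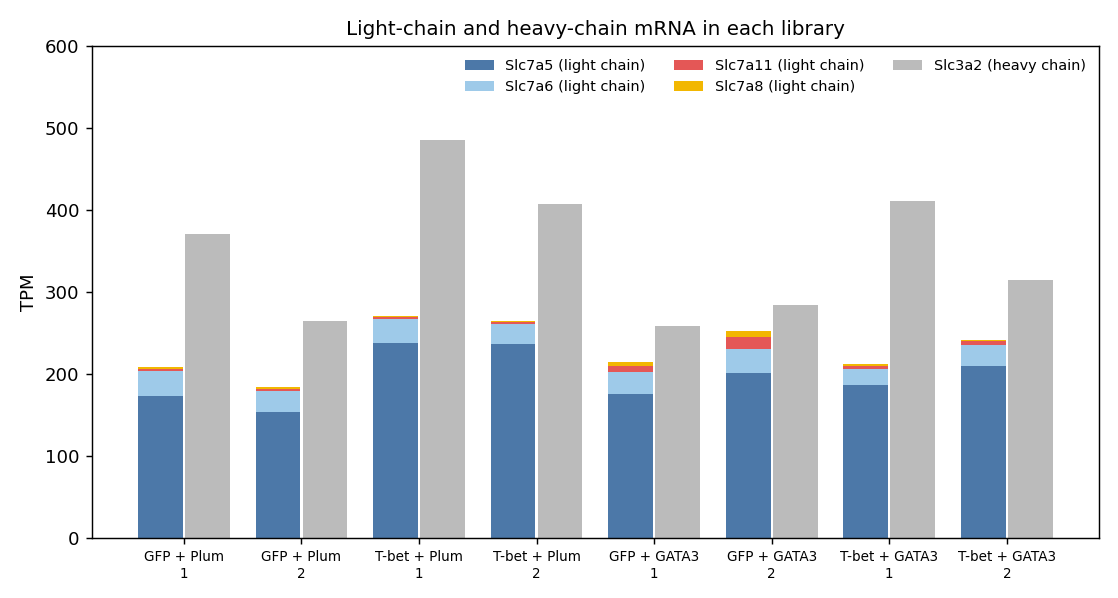
TPM of the 4 light chains, stacked, beside the TPM of the heavy chain Slc3a2 in each library. The stacks reached 184 to 271 TPM and consisted mostly of Slc7a5, and came closest to Slc3a2 in the 2 GFP + GATA3 libraries. The stacks lay below Slc3a2 in TPM but not in estimated counts, which are not scaled to length.

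Genes around the transporters were taken from 6 lists, of which 131 genes were tested. With T-bet, 22 of these passed in the average effect, against 15.2% of all genes as given above. Of the 22, 2 (Slc38a8 and Jdp2) had at most 4 counts in any library without T-bet. They entered the test only through the libraries with T-bet, where they were high, so they are not counted among the genes that rose and 20 remain. Over all genes, 259 of the 2242 called likewise passed the cutoff of the low-count filter in 1 T-bet state only, and 1983 remain. Before such removal 8.55% of all genes rose and 6.61% fell, and these shares belong beside list counts that still include Slc38a8 and Jdp2. On that basis 1 of the other amino acid transporters rose and 2 fell, and 6 genes of the ATF4 list rose and 1 fell. Shares by direction after the removal were not computed. Of 19 other amino acid transporters tested, 2 fell, and none rose apart from Slc38a8. Those that fell were Slc43a2, a carrier of large neutral amino acids (2.74 to 4.59 CPM with T-bet, 6.53 to 8.23 without, log2 fold change -0.91, FDR 0.0131), and Pqlc2, a lysosomal exporter of cationic amino acids (3.24 to 4.24 CPM, 5.39 to 7.18 without, FDR 0.0168). In TPM the ranges of Slc43a2 overlapped, since GFP + Plum replicate 2 (1.765 TPM) lay below T-bet + Plum replicate 2 (2.666 TPM), while those of Pqlc2 did not. Slc38a8 was barely detected, at 0.498 to 1.41 CPM with T-bet and at most 0.254 CPM without.

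The list on the amino acid response of ATF4, which also held the Eif2ak kinases, had 23 genes tested. Leaving out Jdp2, 5 rose and 1 fell with T-bet, and the median log2 fold change of the 23 was 0.25. With Jdp2, 11 of the 23 had an unadjusted p under 0.05 in edgeR, against 29.2% of all genes. Sesn2, a leucine sensor that restrains mTORC1, was at 146 to 188 CPM with T-bet and 52.9 to 107.7 CPM without (log2 fold change 1.13, FDR 0.00344). Nupr1, a stress-induced chromatin protein, was at 7.14 to 19.3 CPM against 1.40 to 2.72 CPM (2.42, FDR 0.00066). Jdp2, a transcription factor of the AP-1 family, was at 1.24 to 4.72 CPM with T-bet and at most 0.254 CPM without. Eif2ak4, the kinase that senses uncharged tRNA, Phgdh and Ppp1r15a also rose, and Asns, which makes asparagine, fell. The list therefore did not move in 1 direction.

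Of 20 cytosolic aminoacyl-tRNA synthetases only Tars, which charges the threonine tRNA, passed (474 to 490 CPM with T-bet, 257 to 305 without, log2 fold change 0.76, FDR 0.000933). Wars (0.31, FDR 0.0694) and Vars (-0.32, FDR 0.134) were next in order of p and did not. Of 33 genes of amino acid sensing by mTORC1, 4 fell and none of them rose in edgeR. At an unadjusted p under 0.05 there were 8 in either direction, against 29.2% of all genes. Fnip1 and Flcn, partners in the complex that activates Rag GTPases on the lysosome, had log2 fold changes of -0.90 (FDR 0.00188) and -0.39 (FDR 0.0149). Lamtor3, a subunit of the lysosomal Ragulator scaffold, was at -0.47 (FDR 0.00785), and the other that fell was Rragc.

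Of 27 genes of amino acid use, 4 rose with T-bet. Glul, which makes glutamine, was at 14.9 to 19.6 CPM with T-bet and 8.23 to 11.2 CPM without (log2 fold change 0.82, FDR 0.0113). Its ranges overlapped in TPM, where T-bet + GATA3 replicate 1 (7.86 TPM) lay below GFP + GATA3 replicate 2 (8.01 TPM). Odc1, the entry enzyme of polyamine synthesis, rose by 0.37 (FDR 0.0352), Bcat1, a branched-chain aminotransferase, by 0.41 (FDR 0.0373), and Got2 was also called. Of 9 tested genes of MYC and its partners, Myc rose from 123 to 150 CPM without T-bet to 207 to 263 CPM with it (0.79, FDR 0.00216). Mxd1, which competes with MYC for their shared partner, rose by 1.81 (FDR 4.58e-05), and Mxd3, of the same family, fell by 1.25 on the log2 scale (FDR 0.0194).

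With added GATA3 none of the 131 genes passed in edgeR in any of the comparisons of GATA3. In its average effect 7 had an unadjusted p under 0.05, beside 4.96% of all genes, and DESeq2 called 1, beside 0.561%. In GFP + GATA3 against GFP + Plum these counts were 2 (3.7% of all genes) and 1 (0.379%), and in T-bet + GATA3 against T-bet + Plum 9 (3.78%) and 0 (0.291%).

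Genes whose pattern over the 8 libraries was most like that of the most variable members were found by the root-mean-square difference of centred log2 CPM among protein-coding genes. For Slc7a11, whose own spread about its mean was 1.04 on this measure, the closest were Hpn (0.428), Bcl2l14 (0.430) and Arg1 (0.503). For Slc7a8, with a spread of 0.873, they were Efr3b (0.350), Fbxo2 (0.364) and Mras (0.374). Hpn reached at most 4.31 CPM, Bcl2l14 3.80 CPM, Fbxo2 2.68 CPM and Mras 1.84 CPM, so counting error takes a large share of their patterns. Arg1 reached 8.81 CPM, whereas Efr3b lay at 88.5 to 387 CPM. All were chosen for their likeness, which is not tested.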

How the data were processed

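RNA-seq was analysed for 8 libraries, 2 from each of 4 EL4 lines, grouped by the sample titles; the study's legend gives more biological replicates for RNA-seq than the 2 a line analysed here. The authors filtered reads with FastQC and Trim Galore!, quantified transcripts with kallisto on mouse Gencode models (GRCm38; the methods name release M20 and the deposited files M18) and deposited estimated counts and TPM per transcript, one file per library. Tool versions are not given in the sources used here.

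Estimated counts were summed per gene over 136535 transcripts and rounded; TPM were summed. Genes passing filterByExpr were fitted together in edgeR 4.0.16 (R 4.3.3; TMM, quasi-likelihood test, Benjamini-Hochberg over all 14791 genes, FDR at most 0.05); CPM use TMM library sizes, and intervals use the approximate SE with 8.08 degrees of freedom. DESeq2 1.42.0, other filters and scalings, length offsets, left-out libraries and a replicate block were alternatives; protein-coding transcripts only was added after seeing the data. DESeq2 shares are of the genes to which it gave an adjusted p. Scripts were tested on simulated data. Counting error only is covered by the detection limit. Gene positions are from Gencode M21.

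The members and lists were chosen with earlier results of these data known. Named outside the members were the 3 genes of each list with the smallest p for the average effect of T-bet, the 3 most like each of the 2 most variable members, and Tbx21 and Gata3. Eif2ak4, Phgdh, Ppp1r15a, Asns, Rragc, Got2 and Pdgfra were named after their values were seen.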

Additional observations from a re-analysis of the deposited data

How the results depend on the processing

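With 2 libraries a line, 1 library could decide a call. All alternatives kept the direction of Slc7a5, Slc3a2 and Slc38a1 in the average effect of T-bet, where 3 members passed. There DESeq2 called 6 and no filter on low counts 6, while the rule that also asks for a log2 fold change above 1.5 called 0, and leaving out 1 library called 0 to 3. With total-count scaling the 3 called included Slc7a8 in place of Slc3a2, protein-coding genes only called 4 (Slc7a8 added), and length offsets called 2 (Slc38a1 lost). In T-bet + Plum against GFP + Plum (1 called) the unfiltered fit called 3, the fit of those 2 lines only 0, the fold rule 0, and leaving out 1 library 0 to 1. In T-bet + GATA3 against GFP + GATA3 (0 called) DESeq2 called 2, the unfiltered fit 3, and leaving out 1 library 0 to 1. In GFP + GATA3 against GFP + Plum and in the average effect of GATA3 (0 each) DESeq2 called 1 and the unfiltered fit 2. The unfiltered fit called 1 in T-bet + GATA3 against T-bet + Plum, 1 against GFP + Plum and 1 in the interaction. FDRs of the unfiltered edgeR fit were far smaller at similar log2 fold changes. For Slc7a11 in GFP + GATA3 against GFP + Plum it gave 2.36 with an FDR of 2.6e-27, against 2.37 and 0.256 with the filter. Its calls are therefore not taken as support. The cause was not tested.

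Same-numbered libraries correlated in their deviations from the line means with r from -0.05 to 0.30, so the numbers were not taken to pair them. With a replicate block 1 member was called in T-bet + Plum against GFP + Plum, 4 in the average effect of T-bet (Slc1a4 added, FDR 0.0173) and 0 elsewhere.

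The ratio of light chains to Slc3a2 moved from line means of 0.604 to 0.861 in TPM to 1.39 to 2.14 in estimated counts. Signs turned in small values that had not passed. On protein-coding transcripts only, Slc1a5 was at -0.44 in T-bet + GATA3 against GFP + GATA3, -0.0344 in the average effect of T-bet and 0.22 in GFP + GATA3 against GFP + Plum, and Slc7a6 was at 0.12 in GFP + GATA3 against GFP + Plum, 0.0133 in T-bet + GATA3 against T-bet + Plum and 0.0687 in the average effect of GATA3. Scaled by total count, Slc1a5 was at -0.042 in T-bet + GATA3 against GFP + GATA3 and Slc3a2 at -0.013 in the interaction. Slc7a6 with length offsets was at 0.00068 in T-bet + Plum against GFP + Plum, and Slc38a2 among protein-coding genes at -2.6e-05 in GFP + GATA3 against GFP + Plum.

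Leaving out 1 library turned further signs. In GFP + GATA3 against GFP + Plum the ranges were -0.59 to 0.44 for Slc1a4, -0.46 to 0.18 for Slc1a5, -0.0531 to 0.119 for Slc38a1, -0.12 to 0.13 for Slc38a2 and -0.18 to 0.02 for Slc7a1. In T-bet + GATA3 against T-bet + Plum they were -0.51 to 0.0261 for Slc1a4, -0.275 to 0.0807 for Slc38a1, -0.58 to 0.0029 for Slc3a2 and -0.55 to 1.03 for Slc7a8. Against GFP + Plum, T-bet + GATA3 gave -0.0300 to 0.997 for Slc1a4, -0.41 to 0.23 for Slc1a5, -0.0576 to 0.523 for Slc3a2 and -1.35 to 0.23 for Slc7a8. The average effect of GATA3 gave -0.424 to 0.0899 for Slc1a4, -0.121 to 0.0571 for Slc38a1 and -0.0567 to 0.0426 for Slc7a5. The interaction gave -0.70 to 0.32 for Slc1a4, -0.63 to 0.0047 for Slc1a5, -0.308 to 0.0472 for Slc38a1, -0.29 to 0.29 for Slc3a2 and -0.139 to 0.0553 for Slc7a1. With T-bet, Slc7a11 gave -0.69 to 0.34 in T-bet + Plum against GFP + Plum and Slc1a5 -0.18 to 0.19 in T-bet + GATA3 against GFP + GATA3.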
